A study of Mus musculus with 12 samples.

Results

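A set of 9 adhesion genes was followed in sorted hippocampal astrocytes: the neuroligins Nlgn1, Nlgn2 and Nlgn3, the neurexins Nrxn2 and Nrxn3, the immunoglobulin-type adhesion genes Nrcam, Ncam1 and Cadm1, and the ephrin Efnb3. They were picked by gene symbol, and all 9 of 9 were found among the 56941 rows of the deposited expression table. The study compared adult naive male mice in which Tnfrsf1b, the gene of the tumour necrosis factor receptor TNFR2, was floxed in both groups. The group labelled cKO (GfapcreERT2:Tnfrsf1bfl/fl) also carried a Cre recombinase driven by the Gfap promoter and activated by tamoxifen, and the group labelled Ctrl (Tnfrsf1bfl/fl) did not. Astrocytes were sorted by their surface antigen ACSA-2, and RNA was sequenced from 12 libraries. Each genotype has 3 A numbers (Ctrl A1, A2 and A8, cKO A4, A9 and A10), each with an S1 and an S2 library. The S1 and S2 values were averaged into 1 unit per A number, which leaves 3 units in each genotype. The labels define neither A nor S and do not say that A numbers are separate animals, so p-values measure only the spread between these units. The series' title names TNFR2 signalling of astrocytes and synapses of the hippocampus, and the comparison asks whether adhesion genes of astrocytes differ between the genotypes.

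Neurexins are adhesion receptors known chiefly from the presynaptic membrane, and neuroligins are partners that bind them across the synaptic cleft. Neuroligins, NrCAM, NCAM and SynCAM proteins are also made by astrocytes, whose fine processes wrap synapses and hold some of the same adhesion partners. Ephrins are membrane-bound ligands of Eph receptor kinases and guide axons and spine growth, and Efnb3 is also known from the oligodendrocyte lineage.

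The libraries held 17311872 to 35323322 reads, as worked out from the spacing of low FPKM values. The commonest step was taken as a pair of reads, and 72.6% to 80.4% of low whole counts were even. Both reads of a pair come from the same fragment, so separate fragments are fewer than the reads given here. Levels are in FPKM, a read level corrected for gene length and for the depth of the library. The 12 astrocyte markers summed to 3910 to 4810 FPKM in the Ctrl units and 4690 to 5350 FPKM in the units labelled cKO, so the sort was rich in astrocyte message in every unit. The 12 oligodendrocyte markers, all detected, summed to 1100 to 2350 FPKM in Ctrl and 313 to 753 FPKM in cKO, without overlap. The 10 neuronal markers summed to 9.27 to 11.4 and 4.33 to 8.54 FPKM. Lowest on average were Gad2 at 0.0835, Rbfox3 at 0.251 and Slc17a7 at 0.254 FPKM, and highest Tubb3 at 1.94 and Snap25 at 2.24 FPKM. The 7 oligodendrocyte precursor markers summed to 127 to 172 and 78.6 to 108 FPKM. Pdgfra averaged least, 0.69 FPKM, and Sox10, Olig2 and Olig1 most, at 17.0, 29.0 and 69.5 FPKM. The 8 microglial markers summed to 14.2 to 19.1 and 20.7 to 36.5 FPKM, the 10 endothelial and mural markers to 66.5 to 151 and 107 to 140 FPKM, and the 6 ependymal markers to 63.2 to 259 and 55.3 to 164 FPKM. The 12 immediate-early genes summed to 309 to 1190 and 225 to 563 FPKM, and Ctrl A8 had the lowest value of the Ctrl units (A1 1030, A2 1190 FPKM). Tnfrsf1b itself was listed at 0 in 9 of the 12 libraries and had 4 reads in A1 S1 and 10 and 22 reads (0.119 and 0.163 FPKM) in the A4 libraries, which are labelled cKO. A4 also had the highest microglial sum, 36.5 FPKM, with Cx3cr1 at 1.28 and C1qa at 2.05 FPKM, and its part in the Tnfrsf1b reads was not tested. These few reads, most of them in A4, cannot check the labels in either direction, so the groups below are the units labelled Ctrl and labelled cKO.

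Promoter sequence is shown for 3 members, which ranked 2, 7 and 9 among the 9 by level in Ctrl and are not evenly spread over the levels. RefSeq (GRCm38.p6) gave 7 start sites for 4 members, Nlgn1, Nlgn2, Nrcam and Nrxn3. The sequences are the 250 bases before the start, 5′ to 3′ on the gene's strand, with each GGGCGG or its reverse complement CCGCCC, the GC box, in capitals. The first belongs to Nrcam (chr12:44328635-44328884, plus strand), the next to Nlgn2 (chr11:69837785-69838034, minus strand) and the last to the most downstream of the 3 Nrxn3 starts (chr12:89812233-89812482, plus strand).
Nrcam: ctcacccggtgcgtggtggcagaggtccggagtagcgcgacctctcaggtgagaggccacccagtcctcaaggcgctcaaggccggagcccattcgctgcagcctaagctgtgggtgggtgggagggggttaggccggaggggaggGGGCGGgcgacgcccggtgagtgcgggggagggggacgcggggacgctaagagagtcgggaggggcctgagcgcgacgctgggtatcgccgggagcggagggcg
Nlgn2: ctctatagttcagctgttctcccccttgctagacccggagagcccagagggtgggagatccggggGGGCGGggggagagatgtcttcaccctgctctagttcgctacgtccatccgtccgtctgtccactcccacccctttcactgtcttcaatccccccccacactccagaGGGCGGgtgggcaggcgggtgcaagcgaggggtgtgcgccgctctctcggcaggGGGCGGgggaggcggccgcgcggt
Nrxn3: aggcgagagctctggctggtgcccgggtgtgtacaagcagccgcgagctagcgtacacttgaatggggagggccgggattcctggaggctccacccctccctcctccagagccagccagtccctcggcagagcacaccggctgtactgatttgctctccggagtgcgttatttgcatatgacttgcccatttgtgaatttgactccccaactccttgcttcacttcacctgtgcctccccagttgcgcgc
The Nrcam sequence had a GC content of 72.4% and 25 CG dinucleotides, an observed over expected ratio of 0.85, with 1 GC box. The Nlgn2 sequence had 67.6%, 18 CG dinucleotides (ratio 0.63) and 3 GC boxes. The Nrxn3 sequence had 60.0%, 12 CG dinucleotides (ratio 0.54) and no match to the motif in this window. The other 2 Nrxn3 starts had 45.6% and 46.8% GC, with ratios of 0.15 and 0.37. The 2 Nlgn1 starts had 43.6% and 53.6% GC, ratios of 0.43 and 0.51 and no GC box, all below the printed Nrxn3 start in GC content and ratio. No relation of promoter sequence to level was tested. Over the 32851 RefSeq start sites, the median GC content was 52.4%, the median ratio 0.37, and 32.7% held the motif on either strand.

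In Ctrl astrocytes the members spanned levels from Ncam1, above 98.6% of the 17540 genes tested, to Nrxn3, above 2.2% of them. Ncam1 averaged 86.8 ± 4.84 FPKM (SD, n = 3). Nrcam followed at 47.0 ± 1.63 FPKM and Cadm1 at 41.4 ± 3.66 FPKM. Efnb3 (29.1 ± 12.6 FPKM) and Nrxn2 (19.6 ± 2.23 FPKM) came next and overlapped in their units. The neuroligins ranked below them, with Nlgn3 at 11.6 ± 0.961 FPKM, Nlgn2 at 10.2 ± 2.04 FPKM and Nlgn1 at 7.77 ± 0.716 FPKM, and neighbours in this order overlapped. Nrxn3 was last at 0.678 ± 0.0438 FPKM. The unit ranges of the remaining neighbours did not overlap. In the units labelled cKO the order was the same but for Efnb3, which stood between Nlgn1 and Nrxn3 at 7.57 ± 5.31 FPKM (SD, n = 3). There the neighbours whose unit ranges overlapped were Nrcam and Cadm1, Nlgn2 and Nlgn1, and Nlgn1 and Efnb3, and the others did not overlap.

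**Figure D1:**
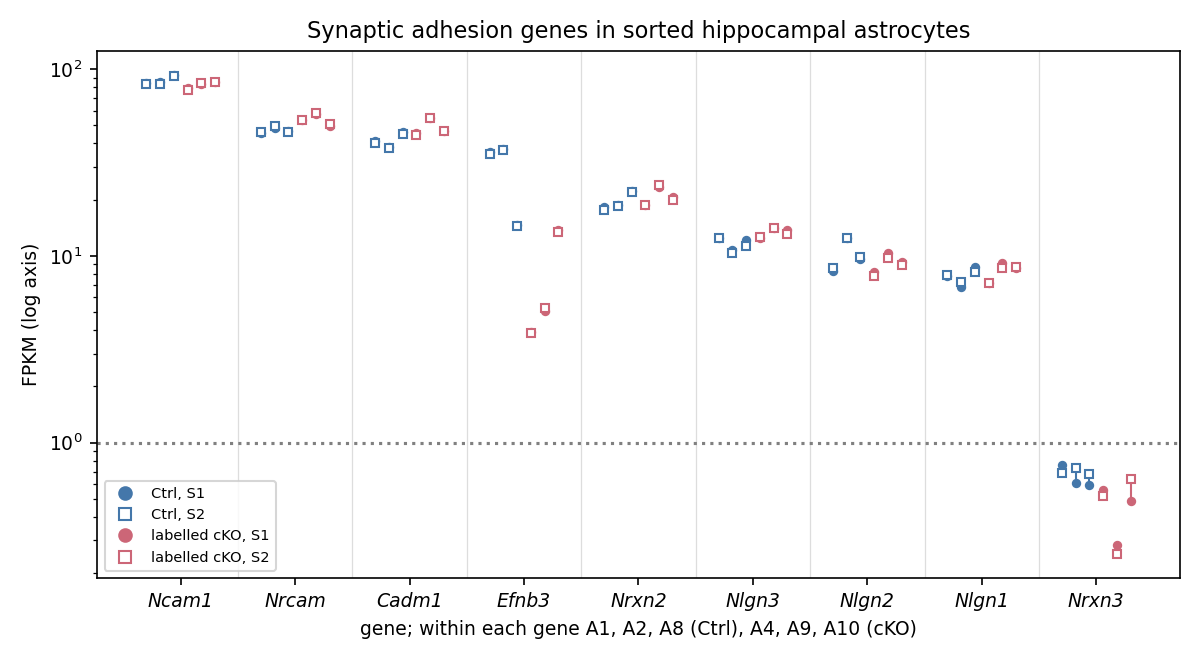
FPKM on a log axis of the 9 genes in all 12 libraries, S1 as filled circles and S2 as open squares joined by a line, Ctrl in blue and the libraries labelled cKO in red, with a dotted line at 1 FPKM. Efnb3 runs from 37.4 down to 3.86 FPKM, while the other genes above the dotted line vary at most 1.55-fold between units.

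The genotype comparison used limma on log2(FPKM + 1), with 17540 genes of mean FPKM 1 or more and p-values adjusted by Benjamini-Hochberg over all of them. Of these, 0 genes (0%) had an adjusted p under 0.05, and 1349 (7.69%) had an unadjusted p under 0.05, 523 higher (2.98%) and 826 lower (4.71%) in cKO. Limma voom on recovered reads also called 0, with 1268 at an unadjusted p under 0.05. The count at an unadjusted p under 0.05 was 2431 without Ctrl A8 and 865 without cKO A9. Of the 9 members, 8 passed the filter on low values and 0 were called, and 1 of the 8, Efnb3, had an unadjusted p under 0.05. The median difference was 0.08 on the log2 scale over the 8 members and -0.0065 over all genes tested. The 3 cKO units lay wholly above the 3 Ctrl units for 2 of the 8, Nlgn3 and Nrcam, and wholly below them for 1, Efnb3. Of all genes tested, 5.76% had cKO units wholly above, 7.22% wholly below and 13.0% either.

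**Figure D2:**
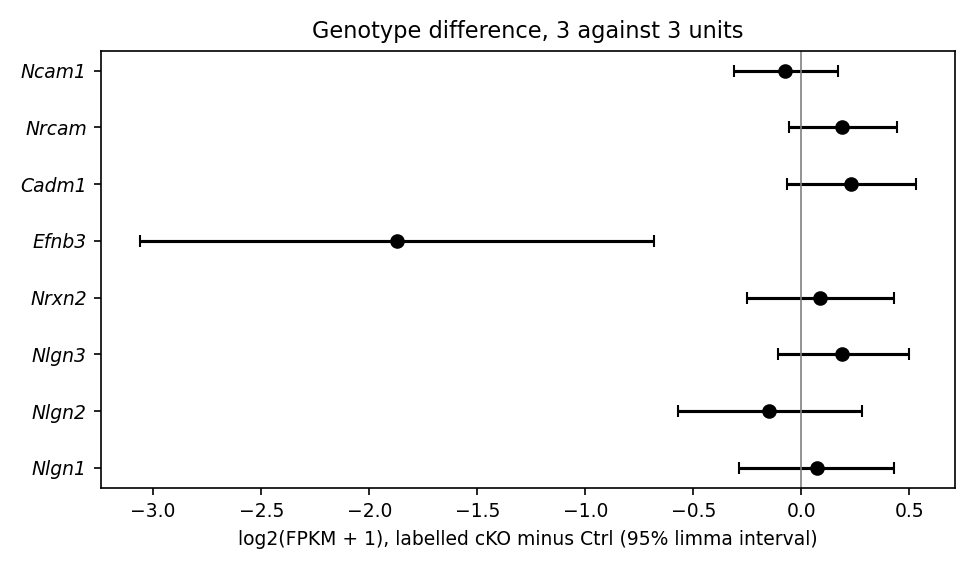
Difference in log2(FPKM + 1), units labelled cKO minus Ctrl (horizontal axis), for the 8 members tested (vertical axis), with 95% limma intervals of 3 against 3 units. The intervals of 7 genes cross 0, and that of Efnb3 runs from -3.06 to -0.68 before adjustment over all genes.

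Among the neuroligins, no difference passed the threshold, and the intervals bound how large one could be. Nlgn3 (ENSMUSG00000031302, chromosome X, start 100342774, end 100369569, plus strand), found at both excitatory and inhibitory synapses, read 12.5 FPKM in A1, 10.6 in A2 and 11.8 in A8, and 12.6 in A4, 14.1 in A9 and 13.5 in A10. The cKO units were thus the higher group, by 1.15-fold in the means, although A4 exceeded A1 by less than S1 and S2 of one unit differed at most (7.42%), and single libraries overlapped. The log2 difference was 0.19 (SE 0.13, limma adjusted p = 0.831). The noncoding gene Gm21986 on the same strand shares 3823 exon bases, 41.2% of the length of Nlgn3, and averaged 12.3 ± 0.976 FPKM in the Ctrl units against 13.3 ± 1.32 FPKM in the cKO units (SD, n = 3), so the split of reads between these genes is uncertain.

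Nlgn2 (ENSMUSG00000051790, chromosome 11, start 69713948, end 69728610, minus strand), the neuroligin of inhibitory synapses, read 8.46 FPKM in A1, 12.4 in A2 and 9.72 in A8, and 8.01 in A4, 10.1 in A9 and 9.09 in A10. A2 alone stood high, and the groups overlapped. The log2 difference was -0.15 (SE 0.18, limma adjusted p = 0.92), and the 95% interval allowed 0.674-fold to 1.21-fold. Without A2 the difference was -0.0078. Nlgn1 (ENSMUSG00000063887, chromosome 3, start 25480379, end 26386609, minus strand), known from excitatory synapses, read 7.83, 7.03 and 8.46 FPKM in A1, A2 and A8 and 7.19, 8.88 and 8.66 FPKM in A4, A9 and A10. These values interleave, with a log2 difference of 0.074 (SE 0.15, limma adjusted p = 0.964) and an interval of 0.821-fold to 1.35-fold. Nlgn1 shares 9.16% of its length with an antisense noncoding gene at 0.471 FPKM on average.

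Summed, the neuroligin messages came to 29.6 ± 0.7 FPKM in Ctrl against 30.6 ± 2.7 FPKM in cKO (SD, n = 3 each). Nlgn3 made up 35.2% to 43.4% of that sum in Ctrl and 42.7% to 45.2% in cKO, and Nlgn2 made up 29.4% to 41.4% and 28.8% to 30.4%. The ratio of Nlgn3 to Nlgn2 was 1.48 in A1, 0.85 in A2 and 1.21 in A8, against 1.57 in A4, 1.4 in A9 and 1.48 in A10. Only in A2 did Nlgn2 exceed Nlgn3, and these shares, which were not tested, overlapped between the groups.

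**Figure D3:**
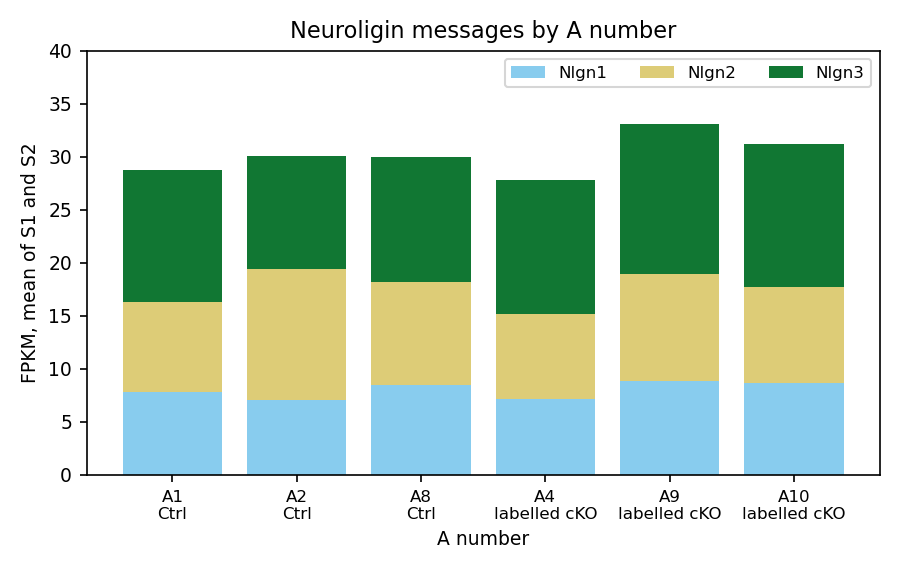
Stacked FPKM of Nlgn1, Nlgn2 and Nlgn3 (vertical axis) in each A number (horizontal axis), mean of S1 and S2. The stacks reach 27.7 to 33.0 FPKM, and A2 is the unit with the largest Nlgn2 share, 41.4%.

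The neurexin Nrxn2 (ENSMUSG00000033768, chromosome 19, start 6468761, end 6594199, plus strand) read 18.0, 18.7 and 22.1 FPKM in A1, A2 and A8 and 18.7, 23.7 and 20.3 FPKM in A4, A9 and A10. The groups overlapped in part, with A1 below all cKO units and A9 above all Ctrl units, and the log2 difference was 0.086 (SE 0.14, limma adjusted p = 0.95), with an interval of 0.838-fold to 1.34-fold. The opposite-strand noncoding gene Gm14964, at 37.0 FPKM on average, shares 1.5% of the length of Nrxn2. The opposite-strand protein-coding gene Slc22a12, at 1.61 FPKM on average, shares 4.94% of it. Nrxn3 (ENSMUSG00000066392, chromosome 12, start 88689646, end 90301709, plus strand) rested on only 63 to 273 reads per library and stayed under 1 FPKM in all 12. Its units read 0.725, 0.672 and 0.638 FPKM in Ctrl and 0.541, 0.27 and 0.565 FPKM in cKO. The cKO units lay below the Ctrl units, but A10 S2 (0.642 FPKM) lay above Ctrl A2 S1 (0.608 FPKM) and A8 S1 (0.594 FPKM). It was not tested with the others, and without the filter its log2 difference was -0.21 (limma adjusted p = 0.82). The neuronal marker sum was lower in the cKO units too, at 4.33, 4.96 and 8.54 FPKM in A4, A9 and A10 against 10.4, 11.4 and 9.27 FPKM in A1, A2 and A8, and its part in the Nrxn3 values was not tested. Of the 10 neuronal markers 3 were tested, all with a difference below 0. The groups overlapped for each of them, and 0 had an unadjusted limma p under 0.05.

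The immunoglobulin-type adhesion genes were the most abundant members in both genotypes. Nrcam (ENSMUSG00000020598, chromosome 12, start 44375668, end 44648747, plus strand), an L1-family molecule that binds contactins and neurofascin, read 45.8 FPKM in A1, 48.8 in A2 and 46.3 in A8, and 53.3 in A4, 57.9 in A9 and 50.2 in A10. All cKO units were above all Ctrl units, although the S1 library of A10 and the S2 library of A2 both read 49.6 FPKM. The log2 difference was 0.19 (SE 0.11, limma adjusted p = 0.764), with an interval of 0.96-fold to 1.36-fold.

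Cadm1 (ENSMUSG00000032076, chromosome 9, start 47441471, end 47769413, plus strand), which encodes the homophilic synaptic adhesion protein SynCAM1, read 40.8, 38.0 and 45.3 FPKM in A1, A2 and A8 and 45.2, 54.6 and 46.7 FPKM in A4, A9 and A10. A4 and A8 nearly coincided, so the groups met without separating, with a log2 difference of 0.23 (SE 0.13, limma adjusted p = 0.755). Ncam1 (ENSMUSG00000039542, chromosome 9, start 49413436, end 49710225, minus strand), the neural cell adhesion molecule, read 83.9, 84.0 and 92.3 FPKM in A1, A2 and A8 and 78.0, 83.8 and 85.2 FPKM in A4, A9 and A10. Its coefficient of variation was 5.58% in Ctrl and 4.63% in cKO. The log2 difference was -0.074 (SE 0.1, limma adjusted p = 0.933), and the interval of 0.805-fold to 1.12-fold was the narrowest of the 8 members tested. The opposite-strand noncoding gene Gm11149, at 26.5 FPKM on average, shares 4.81% of its length.

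The astrocyte marker sum was 3910, 4300 and 4810 FPKM in A1, A2 and A8 and 4730, 5350 and 4690 FPKM in A4, A9 and A10, which overlap. As a share of it, Nrcam was 0.962% to 1.17%, Cadm1 0.884% to 1.04%, Nlgn3 0.244% to 0.319% and Nrxn2 0.395% to 0.46% over the 6 units, and the groups overlapped for these 4 and for Nlgn1. For 3 of the 8 tested members, Nlgn2, Ncam1 and Efnb3, this share was lower in every cKO unit than in every Ctrl unit, and of all 17540 genes tested 2099 (12%) had such a share wholly lower and 414 (2.36%) wholly higher. The values were 0.169% to 0.194% against at least 0.202% for Nlgn2 and 1.57% to 1.82% against at least 1.92% for Ncam1, and 0.0821% to 0.291% against at least 0.302% for Efnb3. Nrxn3, which was under the filter, read 0.00503% to 0.0121% against at least 0.0133%. The part of the marker sum in these differences was not tested.

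Efnb3 (ENSMUSG00000003934, chromosome 11, start 69444918, end 69451031, minus strand, 5 exons), which encodes the transmembrane ligand ephrin-B3, was the member with the widest range. In Ctrl it read 36.1 (S1) and 35.2 (S2) FPKM in A1, 37.4 and 36.8 in A2, and 14.7 and 14.4 in A8. In cKO it read 3.91 and 3.86 FPKM in A4, 5.09 and 5.27 in A9, and 13.8 and 13.5 in A10. All cKO libraries were below all Ctrl libraries, but A10 and A8 lay close together while A1 and A2 stood far above. The unit means were 29.1 ± 12.6 FPKM in Ctrl against 7.57 ± 5.31 FPKM in cKO (SD, n = 3 each). The log2 difference was -1.87 (SE 0.5, limma adjusted p = 0.414, unadjusted 0.00749), which did not pass. A difference of this size or lower was seen in 0.279% of the genes tested. Without A8 it was -2.29 (limma adjusted p = 0.156). Without A4, where most of the few Tnfrsf1b reads were, it was -1.55 (limma adjusted p = 0.934), and without A9 -1.72 (limma adjusted p = 0.94). When limma was run on all 12 libraries, treating A numbers as random effects, it gave the same difference with an adjusted p of 0.0455, and 0.0668 with the replicate block. These 2 fits take S1 and S2 as separate observations, although they differed by at most 3.33% for Efnb3 within a unit and add no further units.

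Efnb3 moved with the oligodendrocyte message across units. The oligodendrocyte marker sum was 2170 FPKM in A1, 2350 in A2 and 1100 in A8, and 313 in A4, 447 in A9 and 753 in A10, and Efnb3 put the units in the same order. Efnb3 was 1.64%, 1.58% and 1.32% of that sum in A1, A2 and A8 and 1.24%, 1.16% and 1.81% in A4, A9 and A10. So while Efnb3 itself varied 9.55-fold between units, its share of the oligodendrocyte sum varied 1.56-fold, with the groups overlapping. Over the 6 units its Pearson r with that sum was 0.99 on the log2 scale, given as a description, and that with the astrocyte sum was -0.81. Of all genes tested, 0.433% had an r of 0.99 or more with the oligodendrocyte sum. Efnb3 and that sum were both lower in cKO on the same units, so a high r follows in part from this. Of the 12 oligodendrocyte markers 12 had an unadjusted p under 0.05, lower in cKO, against 4.71% of all genes tested, and 0 were called. These 12 markers share the same 6 units and are not independent observations. The part of oligodendrocyte message in the Efnb3 difference was not tested, and in bulk samples fewer cells of a type and less RNA per cell cannot be told apart.

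**Figure D4:**
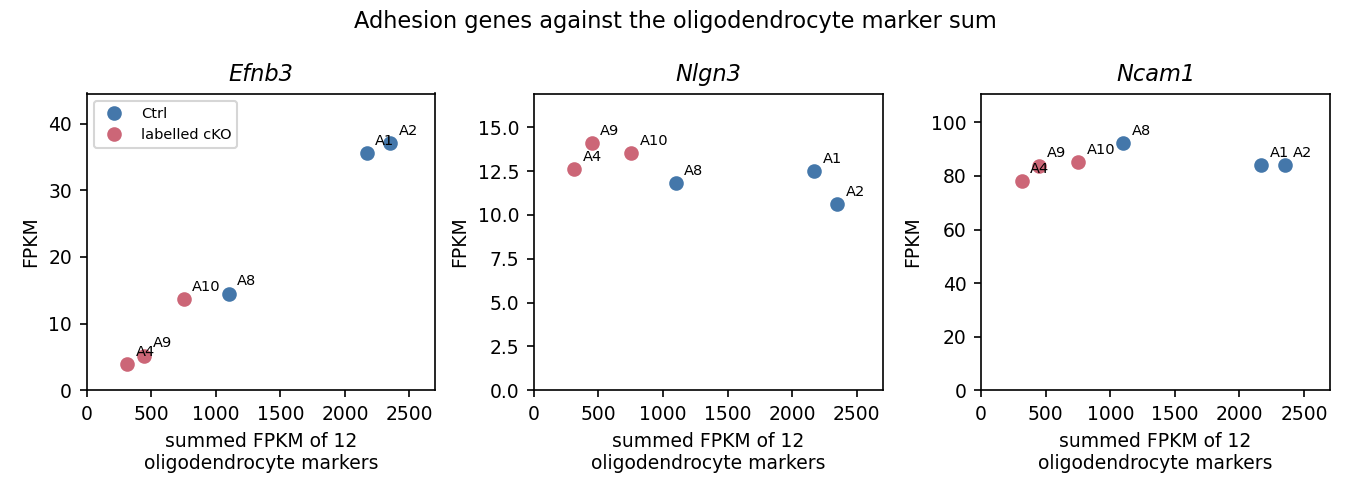
FPKM of Efnb3, Nlgn3 and Ncam1 (vertical axes, from 0) against the summed FPKM of 12 oligodendrocyte markers (horizontal axis) in the 6 units, Ctrl in blue and labelled cKO in red. Efnb3 climbs along the sum from 3.88 to 37.1 FPKM, while Nlgn3 stays between 10.6 and 14.1 FPKM and Ncam1 between 78.0 and 92.3 FPKM.

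For the other members, r with the oligodendrocyte sum over the 6 units was -0.79 for Nrcam, -0.77 for Cadm1, -0.66 for Nlgn3, -0.42 for Nrxn2, -0.26 for Nlgn1, 0.43 for Ncam1 and 0.49 for Nlgn2. With the astrocyte sum it was highest for Nrxn2 and Cadm1 (0.87 each) and Nrcam (0.76). These values share the same 6 units and are descriptions. Among the 28 pairs of tested members, r ran from -0.8 (Nrcam with Efnb3) to 0.86 (Nlgn3 with Cadm1), with a median of 0.27.

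The genes most like each member over the 6 units were sought among 6529 other protein-coding genes with a mean of at least 5 FPKM. For Efnb3 they were the myelin genes Mag (r = 0.998) and Mog (r = 0.997), which averaged 62.9 and 59.6 FPKM in Ctrl and 18.6 and 17.2 FPKM in cKO. For Nrcam they were Hadha, of mitochondrial fatty acid oxidation (0.982), and the adhesion gene Ntm (0.98). For Cadm1 they were Hapln1, which links hyaluronan to proteoglycans (0.986), and Rida (0.98), and for Ncam1 Slc39a3 (0.977). The neuroligins were most like different genes, Nlgn1 like Tmem176a and Vcl (0.97 each), Nlgn2 like Tm9sf3 (0.977) and Hsdl1 (0.975), and Nlgn3 like Pfkfb2 (0.99) and Scara3 (0.979). For Nrxn2 they were mt-Nd3 (0.994) and Ndufa9 (0.99), subunits of respiratory complex I. These values are descriptions over 6 units that share their libraries, and they name only the nearest patterns.

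A wider list of 124 synaptic adhesion genes, members included, gave the setting. Of these, 81 were tested and 0 were called, with 0 higher and 9 lower in cKO at an unadjusted p under 0.05 (11.1% of the 81, against 4.71% lower among all genes tested). Without Ctrl A8 the list had 20 genes at an unadjusted p under 0.05, beside 2431 of all 17540 genes tested. Without A4 it had 6, beside 923 of all 17540. The median difference was 0.038 on the log2 scale. The 9 lower genes were Cntn2, Apba1, Nfasc, Nectin1, Efnb3, Ptprd, Dlg1, Il1rap and Lrrtm2, in order of p. Contactin-2 (Cntn2), an axon and myelin adhesion molecule, averaged 24.3 ± 9.38 FPKM in the Ctrl units against 5.42 ± 2.93 FPKM in the cKO units (SD, n = 3 each), a log2 difference of -1.99 (SE 0.41, limma adjusted p = 0.333). Neurofascin (Nfasc), which acts at nodes of Ranvier and the flanking paranodes, averaged 20.1 ± 4.86 and 8.98 ± 3.21 FPKM (log2 difference -1.1, SE 0.28, limma adjusted p = 0.383). The receptor phosphatase gene Ptprd averaged 20.3 ± 6.18 and 9.97 ± 2.02 FPKM, and the nectin gene Nectin1 4.94 ± 1.65 and 1.45 ± 0.819 FPKM. As a share of the oligodendrocyte sum, Cntn2 was 1.23% to 1.37% in Ctrl and 0.99% to 1.16% in cKO, Nfasc was 0.932% to 1.33% and 1.42% to 2.58%, and Nectin1 overlapped between the groups. Over the 6 units the 9 genes had an r of 0.87 to 1 with the oligodendrocyte sum. The median was -0.1 for the other 72 genes of the list, whose r reached 0.94, and 0.05 for all genes tested. The 9 were picked as low in cKO on the same units, where that sum was also lower in cKO. A high r thus follows in part from the choice, and the contrast with the other 72 genes lends no weight. The part of oligodendrocyte message in these differences was not tested.

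**Figure D5:**
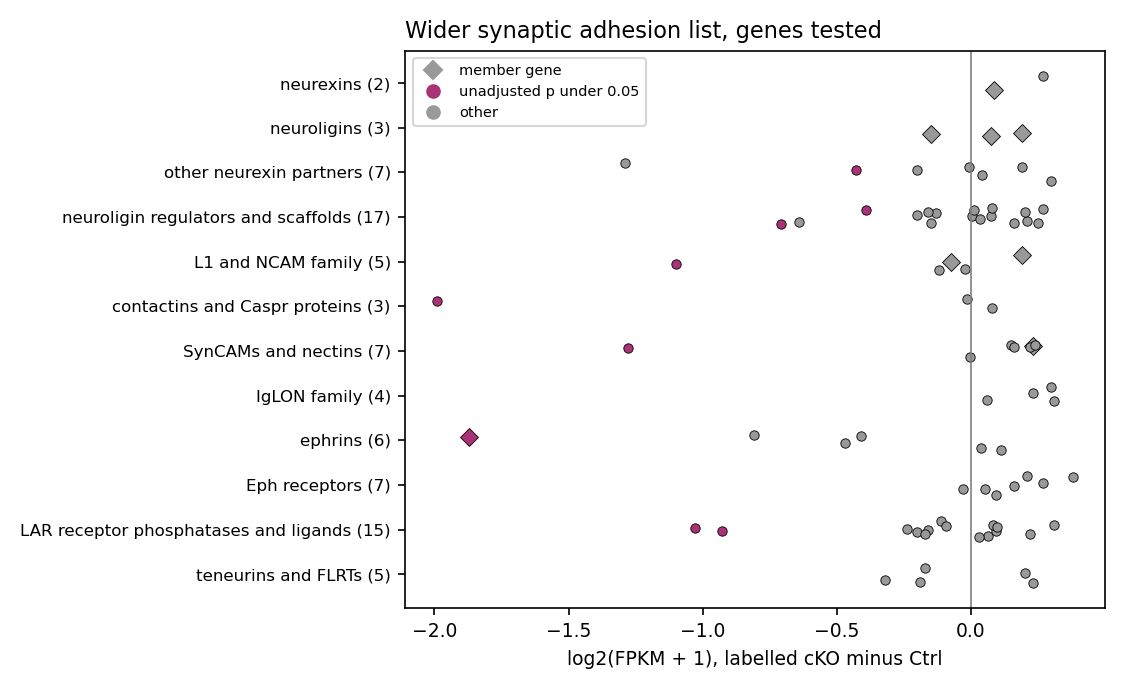
Difference in log2(FPKM + 1), labelled cKO minus Ctrl (horizontal axis), of the 81 tested genes of the wider list by family (vertical axis, number tested in brackets), members as diamonds and genes with an unadjusted p under 0.05 in purple. All 9 purple genes lie to the left, from -0.39 to -1.99, and 0 of the 81 genes pass after adjustment.

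Of 18 further neurexin partners, 7 were tested, and dystroglycan (Dag1), which binds neurexins and laminin, had the highest mean over the 6 units, at 54.5 ± 3.55 FPKM in Ctrl against 62.5 ± 5.13 FPKM in cKO (SD, n = 3 each, limma adjusted p = 0.781). In Ctrl alone the calsyntenin gene Clstn1 was higher, at 56.7 ± 4.18 FPKM. Lrrtm2, a leucine-rich neurexin ligand, averaged 7.3 ± 0.563 and 5.16 ± 0.395 FPKM (log2 difference -0.43, SE 0.15, limma adjusted p = 0.556). Of 19 scaffolds and regulators 17 were tested, led by Apba2 at 26.7 ± 0.464 and 28.5 ± 3.77 FPKM, and Apba1, of the same adaptor family, averaged 6.34 ± 0.693 and 3.48 ± 0.316 FPKM (log2 difference -0.71, SE 0.16, limma adjusted p = 0.344). Among the SynCAMs and nectins, where 7 of 8 were tested, Cadm2 was the most abundant at 69.4 ± 8.45 and 81.1 ± 13.6 FPKM (limma adjusted p = 0.849). All 4 tested IgLON genes had values above 0 for the difference (median 0.27), and 0 of them had an unadjusted p under 0.05. Of all 17540 genes tested 8622 were above 0, and of the 12 astrocyte markers 11 were (median 0.2). Lsamp averaged 30.8 ± 6.13 and 37.8 ± 3.14 FPKM (limma adjusted p = 0.748).

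In the ephrin family, Efnb3 had the highest mean over the 6 units of 6 tested genes. Efna2 was above it in A4 (4.45 against 3.88 FPKM) and A9 (8.15 against 5.18 FPKM), but not in A10 (5.94 against 13.7 FPKM) or in Ctrl. The other B-type ephrins were low, Efnb1 at 3.53 ± 1.04 FPKM in Ctrl and 2.26 ± 0.631 FPKM in cKO and Efnb2 at 1.43 ± 1.38 and 1.23 ± 0.103 FPKM (SD, n = 3 each). Of 14 Eph receptors 7 were tested, and 0 had an unadjusted p under 0.05 in either direction, with a median difference of 0.16. Ephb3, highest of them in the mean over the 6 units but not in Ctrl, where Ephb1 averaged 9.8 ± 2.68 FPKM, averaged 9.66 ± 3.53 FPKM in the Ctrl units against 12.4 ± 1.46 FPKM in the cKO units (limma adjusted p = 0.813). Among the remaining families the genes with the highest mean over the 6 units were Cntn1 (15.2 ± 3.19 and 16.0 ± 1.5 FPKM), Lrrc4b, a ligand of LAR-type phosphatases (52.7 ± 4.19 and 56.6 ± 7.02 FPKM), and the teneurin gene Tenm3 (27.4 ± 2.24 and 32.5 ± 4.1 FPKM). In Ctrl alone, Cntn2 exceeded Cntn1. The limma adjusted p-values of Cntn1, Lrrc4b and Tenm3 were 0.966, 0.931 and 0.774.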

How the data were processed

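The deposited table gives FPKM values per gene and library and the gene's exonic length, and FPKM times kilobases summed to 1000000 in each library. STAR, featureCounts and DESeq2 are named in the submitters' processing notes without versions, and the annotation release is not given in the sources used here. Those notes name GRCm38, yet of 51948 identifiers matched to GENCODE M21 on GRCm38, 2.77% had the same start and end, and 0 of the members did. Gene coordinates are therefore those of the deposited table with the build unsettled, and promoter coordinates are GRCm38.p6 from RefSeq. Rows sharing a symbol (147 symbols) were summed.

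Reads per library were worked out from the spacing of low FPKM values, which gave whole reads (within 0.01) for 83.3% to 87.2% of genes under 2000 reads. The filter kept 17540 genes whose FPKM averaged 1 or more. log2(FPKM + 1) of S1 and S2 was averaged per A number and the genotypes were compared by limma (version 3.58.1, under R 4.3.3, lmFit, eBayes with trend, two-sided, Benjamini-Hochberg, threshold 0.05). The pseudocount of 1 understates changes of low genes. S1 and S2 of an A number correlated at 0.98 to 0.984 across genes and different A numbers at 0.788 to 0.896. The fit was tested on simulated data with planted changes larger than the difference of any member. That run does not show whether differences of the members' size would be found. The script used Python 3.11.15.

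The members and gene lists were chosen with earlier results of these data known. The text names all members, the tested gene of each family with the highest mean FPKM over all libraries, genes of the wider list with an unadjusted p under 0.05, and the 2 genes most like each member. Of the genes this rule gives, 2 are not reported here. Clstn1, Ephb1, Efna2, Efnb1, Efnb2, the markers given singly and the genes that share exon bases with a member were named after their values were seen. Whether the counting used strand is not given in the sources used here. The alternatives were other pseudocounts, filters, scalings and eBayes settings, each A number or S number left out, the log2 of mean FPKM, models of 12 libraries, and voom on recovered reads.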

Additional observations from a re-analysis of the deposited data

How the results depend on the processing

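The count of 0 members called held in 19 of 20 alternative fits. With the 12 libraries fitted and the A number as a random effect (correlation 0.915), 1 member passed, Efnb3, at an adjusted p of 0.0455 and the same difference of -1.87, and 112 genes passed in all, 3 of them in the wider list (Cntn2, Nfasc and Efnb3). With the replicate block added, 0 members passed (Efnb3 0.0668), with 80 genes in all and 1, Cntn2, in the wider list. The S number is the replicate number of the labels and does not pair the genotypes. Deviations of libraries with the same number correlated at -0.069 to 0.142 across genotypes, against -0.098 to 0.12 for different numbers. These models take the 12 libraries as observations, while S1 and S2 of an A number correlated at 0.98 to 0.984 and the units remain 6. The part of this in the larger counts was not tested. Across the fits that left out an A number or an S number, the count of all genes called ran from 0 to 1 (1 without Ctrl A1). That of members and of the wider list stayed at 0. In these fits the wider list had 6 to 20 genes at an unadjusted p under 0.05, and all genes tested had 865 to 2431, both the most without Ctrl A8. Without the filter on low values the wider list had 17 such genes of 121 tested, against 9. All genes then had 1899 of 33395, against 1349 of 17540. Efnb3 kept its sign in all 20 fits, from -2.34 to -1.44, with adjusted p from 0.0455 to 0.94. Nlgn3, Nrcam and Cadm1 kept their signs too, as did Nlgn1 and Nlgn2, whose small differences rested on single units: Nlgn2 moved to -0.0078 without Ctrl A2 and to -0.26 without Ctrl A1, and Nlgn1 to 0.012 without Ctrl A2 and to 0.16 without cKO A4. Ncam1 changed sign with upper quartile scaling (0.0047) and Nrxn2 without cKO A9 (-0.0042), and its leave-one-out values ran up to 0.17. The order of levels in Ctrl was the same with medians and without each Ctrl unit. Depth limits Nrxn3 most, which, with 63 to 273 reads per library, had the fewest reads of the members.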
